A study of Homo sapiens with 9 samples.

Results

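10 genes that encode amino acid carriers were examined: SLC7A5, SLC3A2, SLC43A1, SLC43A2, SLC1A5, SLC38A1, SLC38A2, SLC7A11, SLC7A1 and SLC25A44. They were chosen by name as the transporters of leucine, glutamine, cystine and the neighbouring cationic and mitochondrial routes, and 10 of 10 were found among the 58735 genes of the deposited count table. RNA with poly(A) tails had been sequenced from PANC-1, a long-established line from a human pancreatic carcinoma. The 9 libraries form 3 groups of 3: ACSS2-KO-2 and ACSS2-KO-3, both labelled as ACSS2 knockouts, and NC, against which they are set. The enzyme ACSS2 turns acetate into acetyl-CoA, and the title of the series names BCAT1 and branched-chain amino acids beside it. The groups rest on the sample titles, because the treatment labels of the 6 knockout libraries run from ACSS2-KO to ACSS7-KO. Whether a knockout group is a guide, a clone or a pool, what NC received, and whether its replicates were grown separately are not stated in the sources used here. P-values therefore measure only the variation among these samples, and that may be technical.

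Cells take up leucine mainly in exchange for another amino acid. SLC7A5 (LAT1) is the light chain that carries leucine and other large neutral amino acids inward and glutamine outward, and SLC3A2 (CD98hc, 4F2hc) is the heavy chain that brings it to the plasma membrane. The same heavy chain holds SLC7A11 (xCT), which imports cystine in exchange for glutamate and feeds glutathione synthesis. SLC43A1 (LAT3) and SLC43A2 (LAT4) carry leucine by facilitated diffusion, without exchange. SLC1A5 (ASCT2) exchanges glutamine for other neutral amino acids, and the SNAT carriers SLC38A1 and SLC38A2 bring glutamine and alanine in with sodium. SLC7A1 (CAT1) carries arginine and lysine, and SLC25A44 takes branched-chain amino acids into mitochondria, where BCAT2 acts on them. Amino acid shortage raises several of these genes through the kinase GCN2 and the transcription factor ATF4, and MYC is known to raise SLC7A5 and SLC1A5 in tumour cells.

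Promoter windows of the carriers are shown first, because both of these factors act through short DNA elements. Whether either factor had a part in the changes of the carriers was not tested. RefSeq windows on GRCh38.p14, from 250 bases before to 50 bases after a transcript start, were available for 9 of the 10 genes, 17 windows in all. SLC7A11 was not among them. Capitals mark the core of the ATF4 response element, TGATGNAA, or the E-box bound by MYC and related factors, CACGTG, each searched on both strands, and no window held both. The fall of SLC38A2 named next was not called once GC content and gene length were taken into account, as given below. The following 5 windows, written 5′ to 3′ on the strand of the gene, show SLC7A5, SLC3A2 and SLC7A1, which rose in ACSS2-KO-3, and SLC38A1 and SLC38A2, which fell.
SLC7A5, chr16:87869458-87869757, minus strand: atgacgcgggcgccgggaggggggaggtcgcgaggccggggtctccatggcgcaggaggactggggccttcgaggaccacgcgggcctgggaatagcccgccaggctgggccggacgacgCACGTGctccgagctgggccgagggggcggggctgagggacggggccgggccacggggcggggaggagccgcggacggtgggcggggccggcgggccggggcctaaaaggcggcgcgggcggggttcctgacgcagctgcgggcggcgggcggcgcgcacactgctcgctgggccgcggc
SLC3A2, chr11:62881449-62881748, plus strand: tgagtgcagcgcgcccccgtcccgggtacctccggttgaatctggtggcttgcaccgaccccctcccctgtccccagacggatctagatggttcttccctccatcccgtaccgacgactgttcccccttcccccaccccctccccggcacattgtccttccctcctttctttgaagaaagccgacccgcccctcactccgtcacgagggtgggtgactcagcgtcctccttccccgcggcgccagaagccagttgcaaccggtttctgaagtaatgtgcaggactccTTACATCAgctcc
SLC7A1, chr13:29595639-29595938, minus strand: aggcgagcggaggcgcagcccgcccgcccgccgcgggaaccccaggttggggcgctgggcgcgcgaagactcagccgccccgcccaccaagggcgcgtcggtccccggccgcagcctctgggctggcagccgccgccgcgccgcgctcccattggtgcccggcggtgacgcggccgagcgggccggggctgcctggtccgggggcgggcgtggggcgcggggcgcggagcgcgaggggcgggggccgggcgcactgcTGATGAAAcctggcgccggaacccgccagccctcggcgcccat
SLC38A1, chr12:46266467-46266766, minus strand: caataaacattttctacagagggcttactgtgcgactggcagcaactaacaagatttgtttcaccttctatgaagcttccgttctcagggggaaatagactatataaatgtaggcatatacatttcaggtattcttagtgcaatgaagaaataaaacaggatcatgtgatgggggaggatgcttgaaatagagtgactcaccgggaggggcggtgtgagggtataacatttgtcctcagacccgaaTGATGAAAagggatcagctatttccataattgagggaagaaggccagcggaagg
SLC38A2, chr12:46372724-46373023, minus strand: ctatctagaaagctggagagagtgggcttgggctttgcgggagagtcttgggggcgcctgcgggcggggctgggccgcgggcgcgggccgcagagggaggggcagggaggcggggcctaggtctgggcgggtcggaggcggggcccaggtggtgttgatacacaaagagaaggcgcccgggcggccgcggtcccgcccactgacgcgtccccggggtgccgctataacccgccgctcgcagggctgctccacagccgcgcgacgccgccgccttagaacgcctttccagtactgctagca

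Relative to the transcript start (position 0), the CACGTG of SLC7A5 began at position -130. TGATGNAA began at position 7 in SLC7A1 and at position -4 in the SLC38A1 window, and at position 37 on the opposite strand in the SLC3A2 window. The SLC38A2 window held neither motif. No window of SLC43A2 or SLC25A44, which also rose in ACSS2-KO-3 and are not printed, held either one. SLC3A2 has 3 annotated windows and SLC38A1 has 2, and the ones printed are those with a match. Over the 17 windows, 4 held TGATGNAA, 1 each of SLC3A2, SLC1A5, SLC38A1 and SLC7A1, and 3 held CACGTG, 1 each of SLC7A5, SLC43A1 and SLC1A5. Of all 35116 RefSeq windows of this length, 3.62% held TGATGNAA and 7.26% held CACGTG. A gene with several windows has more chances of a match, and the letters say nothing about whether a factor was bound in these cells.

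Library totals ran from 14756572 to 17457190 counts. Levels are given as CPM, counts per 1000000 counts of the library after TMM scaling between libraries. ACSS2 itself had libraries of 12.4 to 15.1 CPM in ACSS2-KO-2 and 7.19 to 8.57 CPM in ACSS2-KO-3, against 28.3 to 33.3 CPM in NC, and the groups did not overlap. The 6 keratin, EPCAM and vimentin markers of a ductal carcinoma line summed to 5492 to 6140 CPM in ACSS2-KO-2, 6881 to 7647 CPM in ACSS2-KO-3 and 6060 to 6334 CPM in NC. Most of the sum in NC came from KRT8 (mean 2938 CPM), VIM (1747) and KRT18 (1175). KRT19 averaged 296 CPM there, and EPCAM (9.33) and KRT7 (7.04) were low. The acinar, islet, immune, endothelial and fibroblast marker lists each summed to under 0.5 CPM in every library. CDKN2A, known to be deleted in PANC-1, had 700 counts in ACSS2-KO-2, 33 in ACSS2-KO-3 and 0 in NC. Of the same deleted block, MTAP had 138, 26 and 15 counts and CDKN2B had 20, 0 and 0, with the groups in the same order. Across 12903 protein-coding genes, the rank correlation between log2 fold change against NC and transcript GC content was 0.54 for ACSS2-KO-3, compared with -0.02 for ACSS2-KO-2. These genes share the same libraries and are not independent. Fold changes of the carriers in ACSS2-KO-3 are therefore also given from a fit with offsets, per-library terms that take out the relation of the counts with GC content and gene length.

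In ACSS2-KO-3 the leucine exchanger rose together with its heavy chain, the arginine carrier, ASCT2, LAT4 and the mitochondrial carrier, while both SNAT carriers and xCT fell. Of these, SLC38A2 was called lower only without the offsets. By edgeR's quasi-likelihood test with p-values adjusted over all 15811 tested genes (a change is an adjusted p under 0.05), 6 of the 10 carriers rose, 3 fell and SLC43A1 did not pass. Much of the transcriptome also passed in this comparison: 63.3% of all tested genes changed, 31.2% higher and 32.1% lower, so the number of carriers called is not in itself particular to them. Their median log2 fold change was 0.45, against -0.04 over all tested genes, and with the offsets it was 0.22, again against -0.04. Without the offsets a change of at least 2-fold was found upward for 1 carrier, SLC7A5, and downward for 1, SLC7A11. In that fit 1.2% of all genes passed that mark upward and 12.8% downward. With the offsets no carrier reached a 2-fold change. In 9 of the 10 the ACSS2-KO-3 and NC libraries did not overlap, against 66.9% of all genes. In bulk RNA, fewer cells of a kind and less RNA per cell cannot be told apart.

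**Figure D1:**
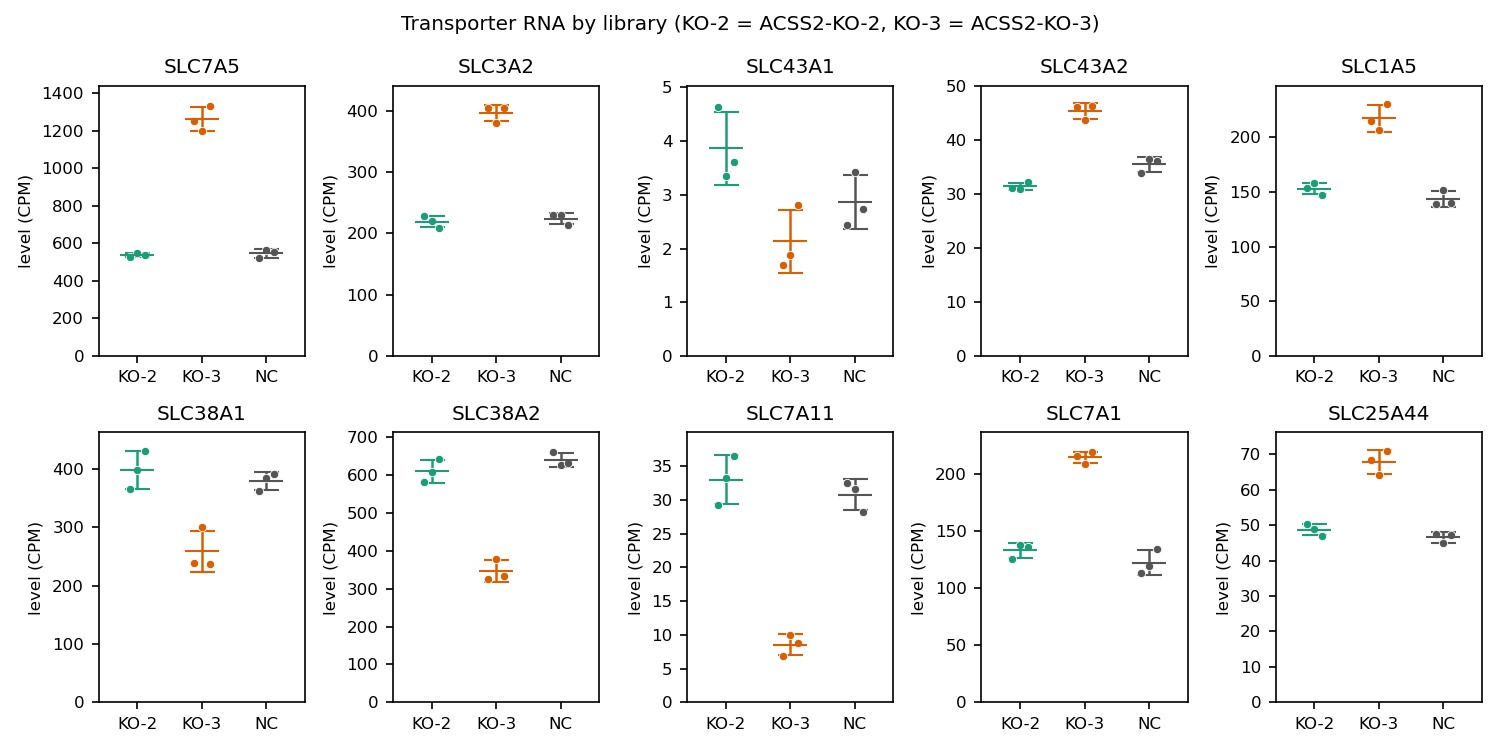
RNA level of each carrier in CPM (vertical axis, from 0) for the 3 libraries of ACSS2-KO-2, ACSS2-KO-3 and NC; points are libraries, and the bar with caps is the mean and SD. SLC7A5 lies at 1201 to 1329 CPM in ACSS2-KO-3 and SLC7A11 at 6.86 to 9.97 CPM, both clear of the other 6 libraries.

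SLC7A5 (ENSG00000103257, chromosome 16, 87830023 to 87869488, minus strand, on GRCh38 as all gene positions here) measured 1253, 1201 and 1329 CPM in the ACSS2-KO-3 libraries, against 520, 562 and 555 CPM in NC. All 3 knockout libraries lay above every NC library. The means were 1261 ± 64.5 CPM in ACSS2-KO-3 and 546 ± 22.6 CPM in NC (SD, n = 3 each), a fold of 2.31 (95% interval of the level 215 to 248% of NC) with an edgeR adjusted p of 4.07e-17. With the offsets its log2 fold change was 0.89 (95% interval 0.81 to 0.98), compared with 1.21 (1.11 to 1.31) without them. In ACSS2-KO-2 the libraries stood at 528, 550 and 538 CPM, within the range of NC. There the log2 fold change was -0.02, with a 95% interval from -0.12 to 0.08 (edgeR adjusted p 0.893).

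SLC3A2 (ENSG00000168003, chromosome 11, 62856102 to 62888875) followed its light chain at a smaller size. Its levels were 403, 380 and 403 CPM in ACSS2-KO-3, against 229, 229 and 214 CPM in NC, and the groups did not overlap. The log2 fold change was 0.82 (SE 0.05, edgeR adjusted p 1.84e-13), or 0.55 with the offsets. ACSS2-KO-2, with 228, 220 and 209 CPM, overlapped NC (-0.03, 95% interval -0.14 to 0.08).

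Because both chains were counted in the same library, their ratio needs no scaling between libraries. Per base of gene model, SLC7A5 had 3.39, 3.45 and 3.59 counts for each SLC3A2 count in ACSS2-KO-3, against 2.48, 2.68 and 2.84 in NC, without overlap. The mean log2 ratio was higher by 0.39 in ACSS2-KO-3 (0.34 as the difference of both fold changes with the offsets), and a 2-sided exact permutation test gave p = 0.1, the smallest that 3 against 3 libraries can give. In ACSS2-KO-2 the ratios were 2.53, 2.73 and 2.81 and overlapped those of NC (difference 0.01, exact permutation p = 0.8).

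The cystine carrier moved the other way from the heavy chain that it shares with SLC7A5. SLC7A11 (ENSG00000151012, chromosome 4, 138164097 to 138242349, minus strand) measured 6.86, 9.97 and 8.84 CPM in ACSS2-KO-3, against 32.6, 31.6 and 28.1 CPM in NC. Every ACSS2-KO-3 library lay far below the lowest NC library. The level fell to 27.9% of NC (95% interval 23.7 to 32.8%, edgeR adjusted p 1.11e-13), a log2 fold change of -1.84. With the offsets that value was -0.60 (95% interval -0.80 to -0.40, edgeR adjusted p 3.42e-06), so the direction and the call stayed at a smaller size. Its transcripts have 35.9% GC, the lowest among the carriers, and the 1359 protein-coding genes under 40% GC had a median of -0.9996 in this comparison. In ACSS2-KO-2 the SLC7A11 levels of 29.2, 33.3 and 36.4 CPM overlapped NC (0.10, 95% interval -0.09 to 0.29).

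The ratio of SLC7A11 to SLC3A2 per base was 0.00913, 0.0141 and 0.0118 in ACSS2-KO-3, against 0.0764, 0.0742 and 0.0707 in NC. On the log2 scale the ratio was lower by a difference of -2.68 (exact permutation p = 0.1, 2-sided), or -1.15 as the difference of both fold changes with the offsets. The chains differ in GC content, 35.9% against 55.7%, and the part of the GC relation in this ratio was not tested beyond the value with the offsets. The antisense gene SLC7A11-AS1 had 25 counts in ACSS2-KO-2, 2 in ACSS2-KO-3 and 17 in NC, beside 1622, 398 and 1483 for SLC7A11 in the same order, and the strand setting of the counting is not given in the sources used here.

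**Figure D2:**
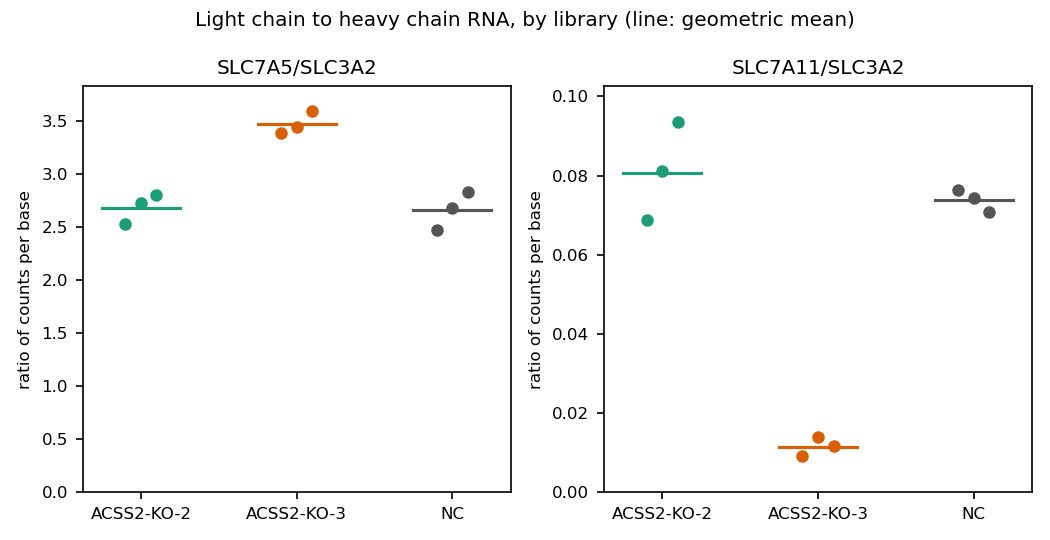
Ratio of light chain to heavy chain RNA, in counts per base of gene model (vertical axes, from 0), for the 3 libraries of each group; points are libraries and lines geometric means. SLC7A5 per SLC3A2 lies at 3.39 to 3.59 in ACSS2-KO-3, above the 2.48 to 2.84 of NC, and SLC7A11 per SLC3A2 lies at 0.00913 to 0.0141, below the 0.0707 to 0.0764 of NC.

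The carriers of glutamine differed in direction. The exchanger SLC1A5 (ENSG00000105281, chromosome 19, 46774883 to 46788594, minus strand) measured 215, 206 and 230 CPM in ACSS2-KO-3, against 139, 152 and 140 CPM in NC, with no overlap. It rose by a log2 fold change of 0.60 (SE 0.06, edgeR adjusted p 4.01e-10), which was 0.28 with the offsets (edgeR adjusted p 4.54e-06). In ACSS2-KO-2 SLC1A5 stood at 154, 158 and 147 CPM and overlapped NC (0.09, 95% interval -0.02 to 0.21).

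The sodium-coupled SLC38A2 (ENSG00000134294, chromosome 12, 46358189 to 46372867, minus strand) measured 325, 379 and 334 CPM in ACSS2-KO-3, against 660, 626 and 631 CPM in NC. The groups did not overlap, and the level fell to 54.1% of NC (95% interval 50.0 to 58.6%, edgeR adjusted p 2.01e-13). With the offsets no change was called: the log2 fold change of -0.89 became -0.04, with a 95% interval from -0.12 to 0.05 (edgeR adjusted p 0.461). SLC38A2 transcripts have 38.8% GC. In ACSS2-KO-2 its levels of 581, 606 and 641 CPM overlapped NC (-0.07, 95% interval -0.18 to 0.04).

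SLC38A1 (ENSG00000111371, chromosome 12, 46183063 to 46270017, minus strand), its neighbour on the same chromosome and strand, measured 239, 300 and 237 CPM in ACSS2-KO-3, against 362, 384 and 391 CPM in NC. Replicate 2 of ACSS2-KO-3 was the highest of its group for SLC38A1, and for SLC38A2 and SLC7A11 as well, yet stayed under every NC library. The log2 fold change was -0.55 (SE 0.07, edgeR adjusted p 1.21e-07), or -0.20 with the offsets (edgeR adjusted p 0.00206). In ACSS2-KO-2 the levels of 366, 398 and 430 CPM overlapped NC (0.07, 95% interval -0.07 to 0.21).

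Among the other carriers, SLC7A1 rose the most. SLC7A1 (ENSG00000139514, chromosome 13, 29509410 to 29595688, minus strand) measured 216, 209 and 219 CPM in ACSS2-KO-3, against 113, 120 and 134 CPM in NC, a fold of 1.75 (edgeR adjusted p 3.77e-12). The groups did not overlap, and the log2 fold change was 0.81, or 0.61 with the offsets. In ACSS2-KO-2 it measured 126, 138 and 136 CPM and overlapped NC (0.12, 95% interval from just under 0 to 0.24, edgeR adjusted p 0.285).

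SLC25A44 (ENSG00000160785, chromosome 1, 156193932 to 156212796) measured 68.4, 64.2 and 70.8 CPM in ACSS2-KO-3, against 47.5, 44.9 and 47.3 CPM in NC, with no overlap. It rose by 0.54 on the log2 scale (SE 0.06, edgeR adjusted p 2.9e-08), or 0.35 with the offsets. In ACSS2-KO-2 it stood at 50.3, 48.8 and 47.0 CPM, overlapping NC (0.06, 95% interval -0.07 to 0.20).

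Of the facilitative leucine carriers, SLC43A2 rose and SLC43A1 did not pass. SLC43A2 (ENSG00000167703, chromosome 17, 1569267 to 1628886, minus strand) measured 46.1, 43.7 and 46.3 CPM in ACSS2-KO-3, against 34.0, 36.4 and 36.1 CPM in NC, and rose by 0.35 (SE 0.07, edgeR adjusted p 5.46e-05). With the offsets the SLC43A2 value was 0.15, close to the threshold (edgeR adjusted p 0.0435). SLC43A1 (ENSG00000149150, chromosome 11, 57484534 to 57515786, minus strand) was the scarcest carrier, with 98 counts over the ACSS2-KO-3 libraries and 138 over NC. It measured 1.70, 1.88 and 2.81 CPM against 2.43, 3.43 and 2.74 CPM in NC, and the groups overlapped.

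SLC43A1 did not pass in ACSS2-KO-3 (-0.43, 95% interval -0.92 to 0.05, edgeR adjusted p 0.114). It passed with the offsets (-0.75, edgeR adjusted p 0.0061) and without replicate 3 of ACSS2-KO-3 (-0.67, edgeR adjusted p 0.0295). Its transcripts have 59.7% GC, the same as those of SLC43A2, so both lie in a range where the median gene was 0.28 higher in ACSS2-KO-3.

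**Figure D3:**
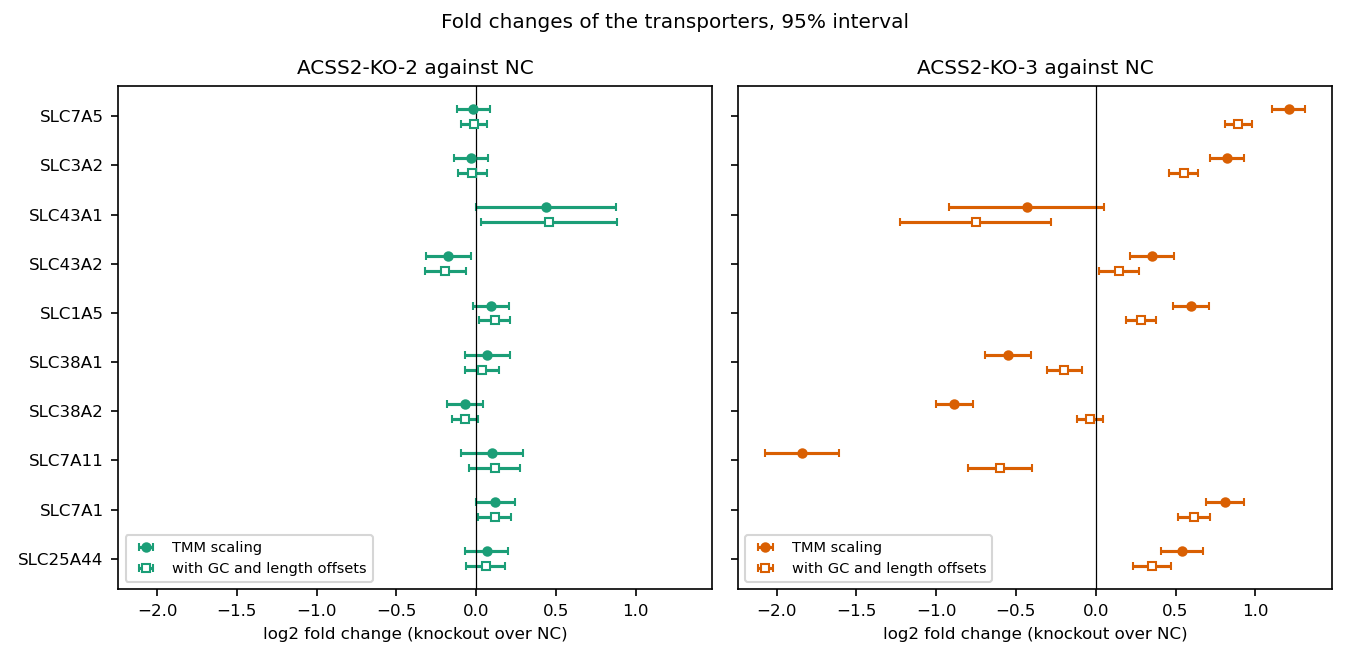
Log2 fold change of each carrier with its 95% interval (horizontal axis), for ACSS2-KO-2 against NC on the left and ACSS2-KO-3 against NC on the right; filled circles are from TMM scaling alone and open squares from the fit with offsets for GC content and length. In ACSS2-KO-3 the offsets draw SLC38A2 from -0.89 to -0.04, SLC7A11 from -1.84 to -0.60 and SLC7A5 from 1.21 to 0.89.

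The fold changes in ACSS2-KO-3 can be set beside those of genes of like GC content. The 3 that fell have transcripts of 35.9, 38.8 and 43.3% GC, and the 6 that rose range from 51.0% in SLC25A44 to 60.4% in SLC7A5. Among protein-coding genes of 50 to 55% GC the median log2 fold change was 0.28, where SLC7A1 (53.3% GC) had 0.81 and SLC25A44 had 0.54. Among those of 55 to 60% it was also 0.28, where SLC3A2 had 0.82 and SLC1A5 0.60. At 60% or more it was 0.27, where SLC7A5 had 1.21. Below 40% the median was -0.9996, where SLC38A2 had -0.89 and SLC7A11 -1.84. SLC7A5, SLC3A2, SLC7A1, SLC1A5 and SLC25A44 lay above the upper quartile of their GC bin, SLC7A11 and SLC43A1 lay below the lower quartile, and SLC43A2, SLC38A1 and SLC38A2 lay between. With the offsets 8 of the 9 calls stayed in the same direction, SLC38A2 was lost and SLC43A1 was gained, against a background of 58.7% of all genes called.

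**Figure D4:**
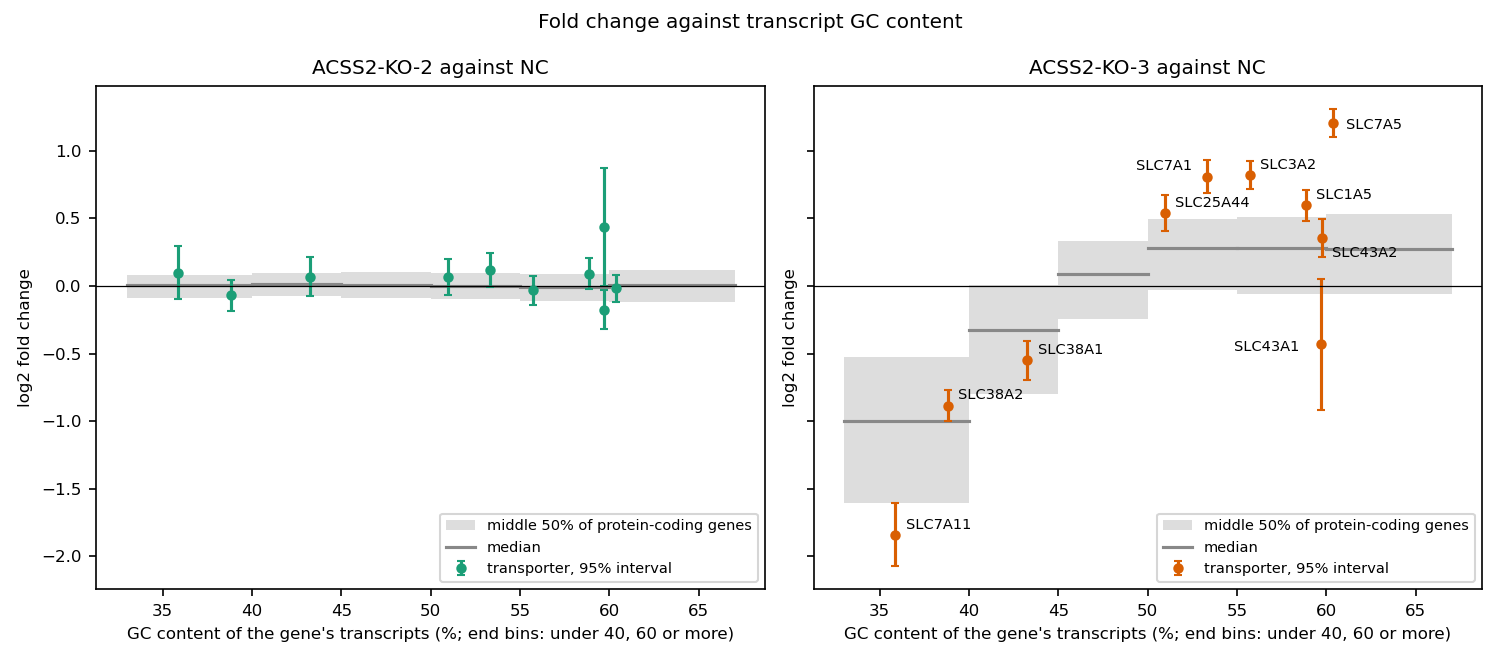
Log2 fold change (vertical axis) against the GC content of a gene's transcripts in percent (horizontal axis), for ACSS2-KO-2 on the left and ACSS2-KO-3 on the right; dots with 95% intervals are the carriers, and grey bands and lines are the middle 50% and the median of protein-coding genes in each GC bin. The median line is near 0 throughout in ACSS2-KO-2 and is -0.9996 under 40% GC and 0.27 at 60% or more in ACSS2-KO-3, where 5 carriers lie above the band and SLC7A11 and SLC43A1 below it.

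In ACSS2-KO-2 none of the 10 carriers passed the edgeR test or DESeq2, where 6.65% of all tested genes passed edgeR. With the offsets the edgeR test also passed none of them, against 9.4% of all genes. Without the offsets only SLC43A2 had an unadjusted p under 0.05. It measured 31.2, 31.0 and 32.2 CPM in ACSS2-KO-2, all below the 34.0, 36.4 and 36.1 CPM of NC (-0.17, 95% interval -0.32 to -0.03, edgeR adjusted p 0.15). It was the 1 carrier of 10 whose libraries did not overlap, against 24.8% of all genes. With the offsets it came closer to the threshold (-0.19, edgeR adjusted p 0.0547). In that fit the 95% intervals of SLC43A1 (0.03 to 0.88), SLC1A5 (0.02 to 0.21) and SLC7A1 (0.01 to 0.22) also excluded 0, and those of the other carriers held 0. Without the offsets SLC43A1 had the widest interval, from just under 0 to 0.88 around 0.44, with levels of 4.63, 3.35 and 3.61 CPM in ACSS2-KO-2. For the other 9 carriers the 95% intervals lay between -0.32 and 0.29, a range that bounds what changes the data allow. Both knockouts are set against the same 3 NC libraries. The median over the carriers was 0.07, against -0.003 over all genes.

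The 2 knockouts were also compared directly. All 10 carriers differed between ACSS2-KO-3 and ACSS2-KO-2, 6 higher and 4 lower, where 61.7% of all genes passed the edgeR test, 31.2% higher and 30.5% lower. The libraries of the 2 knockouts overlapped for none of the 10, against no overlap in 65.9% of all genes. SLC7A5 was higher by 1.23 on the log2 scale (0.91 with the offsets). SLC7A11 was lower by a log2 difference of -1.94, which shrank to -0.71 with the offsets. SLC43A1, which passed against NC in neither knockout, had a difference of -0.87 on the log2 scale (ACSS2-KO-3 over ACSS2-KO-2, SE 0.23, edgeR adjusted p 0.00152; -1.21 with the offsets), with libraries of 1.70 to 2.81 CPM against 3.35 to 4.63 CPM. With the offsets 9 of the 10 differences still passed, most at a smaller size, against 55% of all genes called, and SLC38A2 did not pass (0.04, edgeR adjusted p 0.484).

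Levels can be compared between carriers only per length, here as CPM per 1000 bases of the gene's exons. SLC7A5 led every group, with 266 ± 13.6 in ACSS2-KO-3, 114 ± 2.27 in ACSS2-KO-2 and 115 ± 4.75 in NC (SD, n = 3 each). In NC the order went on with SLC38A2 (96.8), SLC3A2 (43.2), SLC1A5 (43.1), SLC38A1 (37.9), SLC7A1 (15.9), SLC25A44 (6.39), SLC43A2 (3.35), SLC7A11 (3.19) and SLC43A1 (0.812), all per 1000 bases. The NC libraries of SLC3A2 and SLC1A5 overlapped, as did those of SLC43A2 and SLC7A11, and the other neighbours did not. In ACSS2-KO-2 the same carriers held the first, second and last places, and the pairs SLC3A2 with SLC38A1 and SLC7A11 with SLC43A2 overlapped. In ACSS2-KO-3 SLC3A2 (76.4) and SLC1A5 (65.2) stood ahead of SLC38A2 (52.4), and SLC7A11 (0.887) had come down to the range of SLC43A1 (0.603), whose libraries it overlapped, as those of SLC7A1 and SLC38A1 did. These levels are from TMM scaling alone, and the order in ACSS2-KO-3 was not worked out with the offsets. With the offsets SLC38A2 was not called lower and the fall of SLC7A11 was smaller. Exons of all isoforms count toward the length, so a gene with many isoforms reads lower on this scale.

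**Figure D5:**
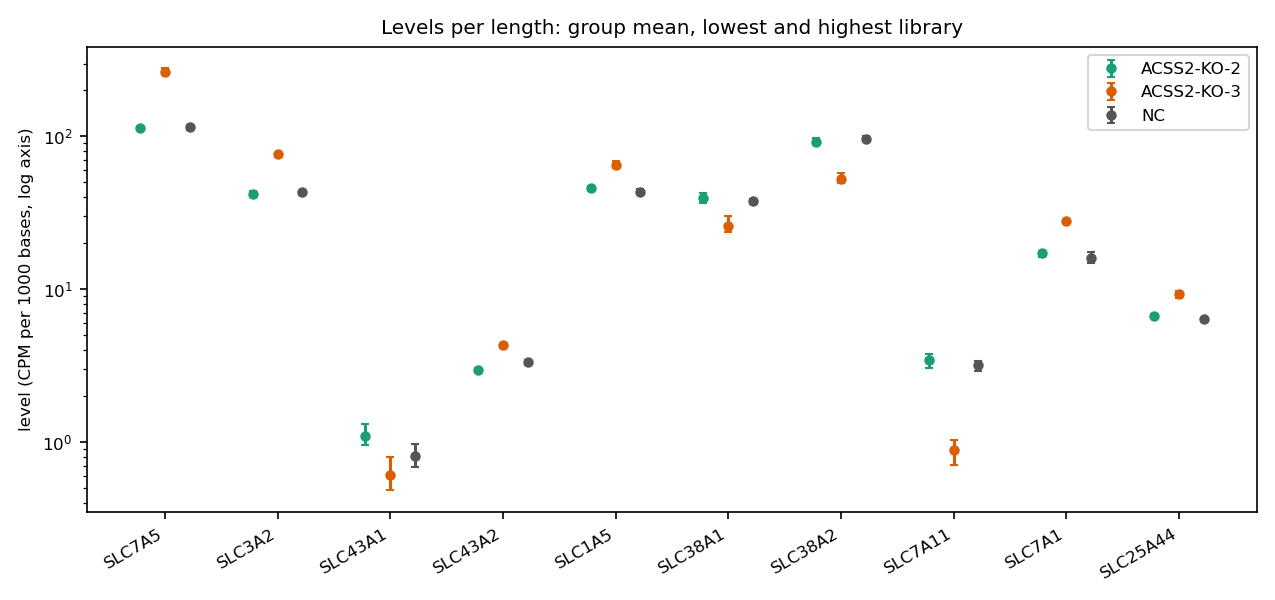
Level of each carrier in CPM per 1000 bases of exon (vertical log axis) for ACSS2-KO-2, ACSS2-KO-3 and NC; points are group means and whiskers the lowest and highest of 3 libraries. SLC7A5 is the highest in all groups, from 114 to 266, and SLC7A11 lies at 0.887 in ACSS2-KO-3 against 3.19 in NC. Levels are without the offsets for GC content and length.

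Of near-identical copies only pseudogenes of SLC7A5 were looked up, and copies of the other carriers were not searched for. The pseudogene SLC7A5P1 had 130 counts in ACSS2-KO-2, 114 in ACSS2-KO-3 and 76 in NC, beside 26536, 58317 and 26331 for SLC7A5.

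The genes whose levels ran most like those of 4 carriers were looked up over the 9 libraries, by the root mean square distance between log2 CPM profiles centred on their own means, among 9640 genes with a mean of at least 10 CPM. Nearest to SLC7A5 were FTH1, the ferritin heavy chain, at 0.0763, FGFR2, a growth factor receptor, at 0.0869 and ID3, an inhibitor of DNA binding, at 0.0897. SLC7A5 had 91 genes within a distance of 0.2, and SLC3A2 was the closest carrier, at place 73. SLC1A5 had 4136 genes within 0.2, led by FXR2, EIF5A and MTHFD1L. Nearest to SLC38A2 were TBL1XR1, TUBE1 and MYEF2, and nearest to SLC7A11 were CHML, TRIM23 and SCAF11, with 1049 and 229 genes within 0.2. The 3 nearest to SLC38A2 have transcripts of 37.9 to 39.8% GC and those nearest to SLC7A11 of 39.2 to 41.1%. These likenesses rest on the same 3 groups and carry no test.

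Other amino acid carriers of the plasma membrane, lysosome and mitochondria gave the setting: 54 were listed and 31 had enough counts to be tested. In ACSS2-KO-3 17 rose and 5 fell by the edgeR test, 71.0% of those tested against 63.3% of all genes, with a median of 0.31. With the offsets 12 rose and 3 fell, 48.4% against 58.7% of all genes, with a median of 0.16, so the share lay above that of all genes in one fit and below it in the other. SLC25A22, a mitochondrial glutamate carrier, rose by 0.75 (0.43 with the offsets), and SLC7A6, which pairs with SLC3A2 to exchange arginine, rose by 0.70 (0.57). SLC25A18, another mitochondrial glutamate carrier, rose by 0.81, and its 0.54 with the offsets missed the threshold (edgeR adjusted p 0.0774). SLC38A4 fell by 3.13 (-2.51 with the offsets) to 0.235 CPM, against 2.14 CPM in NC. SLC7A2, a cationic amino acid carrier, fell by 2.1 (-1.63) to 0.263 CPM, against 1.14 CPM in NC. Over the ACSS2-KO-3 libraries SLC38A4 had only 11 counts and SLC7A2 only 12, so the sizes of both falls are uncertain. SLC36A4 fell by 1.04 and stood at 0.16 with the offsets, where it did not pass (edgeR adjusted p 0.0668). SLC7A2 moved the other way in ACSS2-KO-2, where it rose by 1.53 (edgeR adjusted p 0.000226) to 3.31 CPM.

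In ACSS2-KO-2 5 of these 31 rose and 2 fell by the edgeR test, 22.6% against 6.65% of all genes. Among the risen, SLC1A3, SLC16A10 and SLC7A8 had enough counts to be tested only through ACSS2-KO-2. Their rise was thus tied to their place among those tested, and no conclusion is drawn from this share. SLC1A3, a glutamate carrier of glia, had 111 counts in ACSS2-KO-2 and 0 in NC, at least 12.1-fold higher against the mean floor of 3 counts per library, and 2 counts in ACSS2-KO-3. SLC16A10, an aromatic amino acid carrier, had 81 counts in ACSS2-KO-2 and 0 in NC, at least 8.80-fold higher. With 8 counts in ACSS2-KO-3 it was called higher there too (edgeR adjusted p 0.00621), at a mean level under the floor. SLC7A8 (LAT2), another leucine exchanger that pairs with SLC3A2, had 70 counts in ACSS2-KO-2, 0 in ACSS2-KO-3 and 2 in NC. The ratio of ACSS2-KO-2 to NC was 34.3 (95% counting interval 9.14 to 288). CDKN2A, with 700 counts in ACSS2-KO-2 and 0 in NC, moved with them, and its part in these values was not tested. MFSD12, a lysosomal cysteine carrier (-0.20, edgeR adjusted p 0.0209), and SLC6A6, a taurine carrier (-0.18, 0.0427), fell by small margins. Both calls were lost with DESeq2 (adjusted p 0.0542 for MFSD12 and 0.1 for SLC6A6). The MFSD12 call was also lost without replicate 1 or 3 of ACSS2-KO-2 or replicate 2 or 3 of NC (highest edgeR adjusted p 0.130), and the SLC6A6 call with RLE scaling, with no filter, without any 1 library of ACSS2-KO-2 and without replicate 2 or 3 of NC (highest 0.281).

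Of 17 enzymes that use the carried amino acids, 15 were tested. In ACSS2-KO-3 7 rose and 5 fell by the edgeR test, 80.0% against 63.3% of all genes, and with the offsets 8 rose and 5 fell, 86.7% against 58.7%. In ACSS2-KO-2 2 rose and 1 fell, 20% against 6.65% of all genes. Only 1 rose there without replicate 1 or 3 of ACSS2-KO-2, replicate 3 of ACSS2-KO-3, or replicate 1 or 2 of NC. The fallen gene in ACSS2-KO-2 was BCAT1, which starts leucine breakdown in the cytosol, at 7.38, 11.2 and 9.70 CPM against 20.5, 20.1 and 17.5 CPM in NC (log2 fold change -1.04, edgeR adjusted p 1.62e-06). BCAT1 had 1.37, 1.64 and 1.78 CPM in ACSS2-KO-3, lower still (-3.59, or -2.88 with the offsets). GLUL, which makes glutamine, measured 13.3, 12 and 12.1 CPM in ACSS2-KO-2 libraries. It had 2.09, 2.13 and 3.36 CPM in those of ACSS2-KO-3, against 0.936, 1.42 and 0.894 CPM in NC, and rose in both knockouts (log2 fold change 3.52 with an edgeR adjusted p of 1e-12 in ACSS2-KO-2, and 1.21 with 0.000167 in ACSS2-KO-3, where it was 1.09 with the offsets). The GLUL counts of 616 in ACSS2-KO-2, 116 in ACSS2-KO-3 and 52 in NC ran in the same order as those of CDKN2A (700, 33 and 0). Whether the 2 are linked was not tested. BCKDHB, a subunit of the branched-chain ketoacid dehydrogenase, fell in ACSS2-KO-3 by 0.74 (-0.29 with the offsets). GSR, which regenerates glutathione, rose by 0.66 (0.41 with the offsets) and ODC1, which uses ornithine, by 0.78 (0.55).

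Of 16 genes known to regulate the carriers, 15 were tested. In ACSS2-KO-3 7 rose and 4 fell by the edgeR test, 73.3% against 63.3% of all genes, and with the offsets 4 rose and 5 fell, 60.0% against 58.7%. NFE2L2, which encodes NRF2, an activator of SLC7A11, fell to 57.3, 67.3 and 54.0 CPM in ACSS2-KO-3, against 120, 113 and 105 CPM in NC (-0.92 on the log2 scale with an edgeR adjusted p of 8.3e-12, and -0.64 with the offsets). KEAP1, the adaptor that marks NRF2 for degradation, rose to 149, 151 and 154 CPM, against 88.0, 88.4 and 94.9 CPM in NC. Its log2 fold change was 0.74, or 0.41 with the offsets. Whether NRF2 had a part in the fall of SLC7A11 was not tested. ATF4 RNA stood at 290, 282 and 304 CPM in ACSS2-KO-3, against 294, 283 and 284 CPM in NC, and did not pass (0.03, edgeR adjusted p 0.665), whereas with the offsets it was lower (-0.22, edgeR adjusted p 3.54e-05). ATF4 is controlled largely at translation, so its RNA is a partial readout.

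MYC rose by 0.40 in ACSS2-KO-3 (edgeR adjusted p 3.57e-06), at 101, 102 and 108 CPM against 70.2, 81.8 and 83.3 CPM in NC, and missed the threshold with the offsets (0.11, edgeR adjusted p 0.0934). HIF1A (-0.93) and CEBPG (-0.39), a partner of ATF4, fell in ACSS2-KO-3, but neither passed with the offsets (-0.12 for HIF1A and 0.02 for CEBPG). In ACSS2-KO-2 none of the regulators rose and 1 fell by the edgeR test, 6.67% of those tested against 6.65% of all genes.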

How the data were processed

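Polyadenylated RNA of PANC-1 cells was sequenced in 9 libraries, selected with oligo(dT) beads and marked with dUTP for strand, per the labels' protocols. The submitters' processing notes name GRCh38 and, without roles, cutadapt 1.9, HISAT2 2.2.1, StringTie 2.1.6, DESeq2 and edgeR. No source used here gives the settings of counting and strand. The authors deposited whole-number counts per gene and library, with no scaling, and a length per gene that equalled the union of GENCODE 29 exons for 58724 of 58735 genes.

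Counts were scaled with TMM, filtered with filterByExpr by group (minimum count 10, minimum total 15) and fitted in edgeR 4.0.16 (R 4.3.3) with 1 mean per group over all 9 libraries, 6 residual degrees of freedom. The quasi-likelihood tests were 2-sided, with Benjamini-Hochberg adjustment over 15811 genes. All 10 carriers passed the filter. The common dispersion was 0.00291. No libraries of a group agreed within sampling noise, so none was treated as a library deposited again; this does not show that they are separate cultures. A fold against 0 counts uses a floor of 3 counts per library; floors and counting intervals cover counting error only.

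The offsets came from natural splines (5 degrees of freedom each) of each library's log2 deviation on GC content and log length, followed by TMM. They remove any relation with GC content, technical or not. Alternatives were RLE scaling, no filter, DESeq2 1.42.0, the replicate number as a block, the offsets with and without that block, leaving out each library, and, added after seeing the data, a fit of only the groups compared. The tests were checked on counts simulated from the NC means, with few genes changed and no relation with GC content built in. That check does not cover a comparison like ACSS2-KO-3 over NC, where most genes passed. Genes named from the 3 other lists were, per knockout, up to 3 risen and 3 fallen with the largest fold among those that passed, did not overlap NC and averaged at least 1 CPM in the higher group; SLC66A1 was matched through its current symbol. Some genes that this rule or an overlap would name are not reported here. ATF4 and the overlapping genes were named after their values were seen. The carriers and lists were chosen with earlier results of these data known. Both knockouts share the same NC libraries.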

Additional observations from a re-analysis of the deposited data

Results flagged for a closer look

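All 10 carriers differed between the knockouts by the direct edgeR test of ACSS2-KO-3 against ACSS2-KO-2, so their values against NC are not alike in both. The log2 differences were 1.23 for SLC7A5, 0.85 for SLC3A2, 0.69 for SLC7A1, 0.53 for SLC43A2, 0.50 for SLC1A5 and 0.48 for SLC25A44. They were -0.62 for SLC38A1, -0.82 for SLC38A2, -0.87 for SLC43A1 and -1.94 for SLC7A11. With the GC and length offsets these 10 values were, in the same order, 0.91, 0.57, 0.50, 0.34, 0.17 and 0.29, and -0.23, 0.04, -1.21 and -0.71, and SLC38A2 no longer passed. In the same test 61.7% of all genes passed.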

How the results depend on the processing

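The counts of carriers called, 0 for ACSS2-KO-2 and 9 for ACSS2-KO-3 over NC, were the same with RLE scaling, no filter, DESeq2, the replicate block, the offsets and the fit of only the groups compared; 9 of 9 calls were shared in each except with the offsets, which kept 8. Leaving out single libraries gave 0 and 9 to 10. In the direct comparison 10 were called, 9 with the offsets. With the offsets, alone or with the block, SLC38A2 turned to 0.035 between the knockouts, SLC36A4 to 0.16 and CEBPG to 0.023 in ACSS2-KO-3. Over all genes, 1052 were called in ACSS2-KO-2 (603 higher, 449 lower), 837 with DESeq2 (597 and 240), 1113 with the replicate block, 1647 with the offsets and the block, and 666 to 1295 on leaving out a library, the lowest without ACSS2-KO-2 replicate 2. In ACSS2-KO-3 10006 were called, 10022 with the block and 9285 with the offsets. The 1 regulator called in ACSS2-KO-2 became 0 to 1 on leaving out a library. The log2 difference of the SLC7A5 to SLC3A2 ratio in ACSS2-KO-2 ranged from -0.037 to 0.060. The replicate numbers were not used as pairs, since 0 of 9 same-number residual correlations between groups exceeded 0.1, and the block changed no call of a carrier. SLC43A1, with 98 to 192 counts per group, is limited by depth.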
